A study of Mus musculus with 12 samples.

Results

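The collagen genes of the mouse were followed through the differentiation of embryonic stem (ES) cells towards heart muscle. They were chosen by name, as the gene-level rows to which the array's annotation gives a single symbol of the form Col, number, a, number. The rule found 39 collagen genes among 23332 gene-level rows, each with 1 row. Of 44 collagen symbols looked up, 5 lay outside it. Col19a1 shares its row with another symbol, and Col6a4, Col6a5, Col22a1 and Col28a1 are not analysed here. The 3 stages, of 2 samples each, were day 0 (undifferentiated ES cells), day 7 (embryonic bodies) and day 14 (cardiac bodies). Embryonic bodies are clumps of differentiating ES cells in which early tissues arise, and all 3 stages came from 1 serum-containing differentiation culture scheme. RNA was measured on an exon array that carries several probe sets along each gene. The labels name no ES cell line, and do not say whether the 2 samples of a stage came from separate cultures. The p-values therefore rest on a spread between samples that may be technical.

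Collagens are secreted or membrane-bound proteins whose chains wind around each other in threes into a long helix. Fibrillar collagens form the ropes of connective tissue, collagen IV forms the sheet-like network of basement membranes, and collagen VI forms beaded filaments between cells and matrix. Fibril-associated collagens sit on the surface of the fibrils, and others span the cell membrane. In the early mouse embryo, collagen IV is laid down in the first basement membranes, and the fibrillar collagens are typical products of mesenchyme and, later, of heart fibroblasts.

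Several collagen genes lie beside a partner chain. In the mouse gene table of assembly GRCm38.p6, Col4a1 and Col4a2 are neighbours on chromosome 8, Col4a5 and Col4a6 on the X chromosome, Col4a3 and Col4a4 as well as Col3a1 and Col5a2 on chromosome 1, and Col6a1 and Col6a2 on chromosome 10. The RefSeq promoter table of that build held windows from 250 bases before to 50 bases after the start for 31 of the 39 genes. The windows of Col4a1, Col4a2, Col4a5 and Col6a1 are shown because these genes carry most of the calls below. That of Col4a6, which was not called, is shown as the neighbour of Col4a5. Col4a1 and Col4a2 start 21 bases apart on opposite strands, and their windows share 78 bases, printed in capitals, once on each strand.
Col4a1, chr8:11312777-11313076, minus strand: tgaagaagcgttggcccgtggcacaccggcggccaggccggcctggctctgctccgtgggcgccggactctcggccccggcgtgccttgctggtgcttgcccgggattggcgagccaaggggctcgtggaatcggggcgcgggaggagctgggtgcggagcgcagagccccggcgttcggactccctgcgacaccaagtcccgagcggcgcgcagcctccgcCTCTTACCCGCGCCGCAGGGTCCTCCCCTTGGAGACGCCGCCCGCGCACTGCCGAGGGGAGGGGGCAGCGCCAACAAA
Col4a2, chr8:11312555-11312854, plus strand: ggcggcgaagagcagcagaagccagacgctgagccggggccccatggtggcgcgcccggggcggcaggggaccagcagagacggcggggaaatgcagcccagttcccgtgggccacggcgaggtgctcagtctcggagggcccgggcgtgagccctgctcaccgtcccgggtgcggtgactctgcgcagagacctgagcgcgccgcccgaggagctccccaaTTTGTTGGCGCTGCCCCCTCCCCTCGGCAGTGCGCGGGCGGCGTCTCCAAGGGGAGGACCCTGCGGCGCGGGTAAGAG

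Col4a5 and Col4a6 also start on opposite strands, but 1343 bases apart, so that their windows do not overlap. In the next windows the capitals mark the GC box, the letters GGGCGG on either strand, which Sp-family factors are known to bind.
Col4a5, chrX:141475169-141475468, plus strand: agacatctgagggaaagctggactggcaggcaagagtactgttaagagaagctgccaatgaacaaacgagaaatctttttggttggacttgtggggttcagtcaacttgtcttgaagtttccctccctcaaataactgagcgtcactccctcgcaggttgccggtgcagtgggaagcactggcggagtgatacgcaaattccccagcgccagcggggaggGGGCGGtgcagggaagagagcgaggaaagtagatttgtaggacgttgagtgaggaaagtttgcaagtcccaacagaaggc
Col4a6, chrX:141474027-141474326, minus strand: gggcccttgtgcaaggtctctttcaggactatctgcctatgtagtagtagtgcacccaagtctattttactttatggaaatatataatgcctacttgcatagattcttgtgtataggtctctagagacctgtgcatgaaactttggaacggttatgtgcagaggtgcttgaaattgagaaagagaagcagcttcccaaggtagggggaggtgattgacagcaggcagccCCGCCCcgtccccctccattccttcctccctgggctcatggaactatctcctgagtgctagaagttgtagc
Col6a1, chr10:76725995-76726294, minus strand: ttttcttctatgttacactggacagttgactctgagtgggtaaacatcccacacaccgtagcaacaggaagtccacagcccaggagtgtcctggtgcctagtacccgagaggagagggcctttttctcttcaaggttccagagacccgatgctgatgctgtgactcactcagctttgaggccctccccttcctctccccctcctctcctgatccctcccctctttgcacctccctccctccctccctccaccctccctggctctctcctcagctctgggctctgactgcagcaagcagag

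The Col4a5 and Col4a6 windows each hold 1 GC box and the Col6a1 window holds 0. Over the 34 windows of collagen genes, 61.8% hold a GC box, against 35.7% of all 32851 windows of the same length. The collagen windows had a median GC content of 60.2%, against 52.7% over all windows. The letters CCAAT, on either strand, occurred in 35.3% of collagen windows and 37.4% of all windows. The letters TATAAA, on either strand, occurred in 14.7% and 13.6%. The Col4a1 and Col4a2 windows hold 1 CCAAT each and no TATAAA. A match of letters describes the sequence and shows no binding.

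Marker genes fitted the stage names in part. All 8 markers of pluripotent cells fell by day 7 and all 7 measured cardiomyocyte markers were higher at day 14 than at day 0. The cardiac bodies had a high pluripotent signal, above that of day 7. The mean over the 8 markers was 10.4 and 10.6 in the 2 cardiac body samples, against 11.2 in both ES cell samples and 8.02 and 7.84 at day 7. All 8 had a lower mean at day 14 than at day 0, of which 2 passed the test (against 0.686% of all rows). All 8 had a higher mean at day 14 than at day 7, of which 7 passed (against 2.11%). The 2 samples of a stage correlated across rows at 0.973 to 0.978, and the sample medians lay between 6.47 and 6.79 on the log2 scale.

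Most collagen genes were not called, and a few chains of collagen IV, VI and XII rose. Changes are log2 differences ± standard error from a limma fit over all rows, with n = 2 per stage, and genes with a Benjamini-Hochberg adjusted p under 0.05 were called. Between day 0 and day 7, 3 of 39 collagen genes rose (7.69%, against 5.35% of all rows) and 0 fell (against 5.28%), where 10.6% of all rows were called in either direction. They were Col4a1, Col4a2 and Col12a1. Between day 0 and day 14, 4 of 39 rose (10.3%, against 2.63% of all rows) and 0 fell (against 0.686%), where 3.32% of all rows were called in either direction. These were Col4a1, Col4a2, Col4a5 and Col6a1. The share called at day 7 was thus close to that of all rows, and the share called higher at day 14 lay above it. All rows include 7317 with no symbol. The day 14 excess also depended on the setting. On the means of exon-level probe sets the same 4 were called, where 8.52% of all genes were called. With samples centred on their medians 0 were called, where 3.37% of all rows were. The day 7 and day 14 comparisons share the ES cell samples, so their counts are not independent. In whole cultures, more cells of a type and more RNA per cell cannot be told apart.

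**Figure D1:**
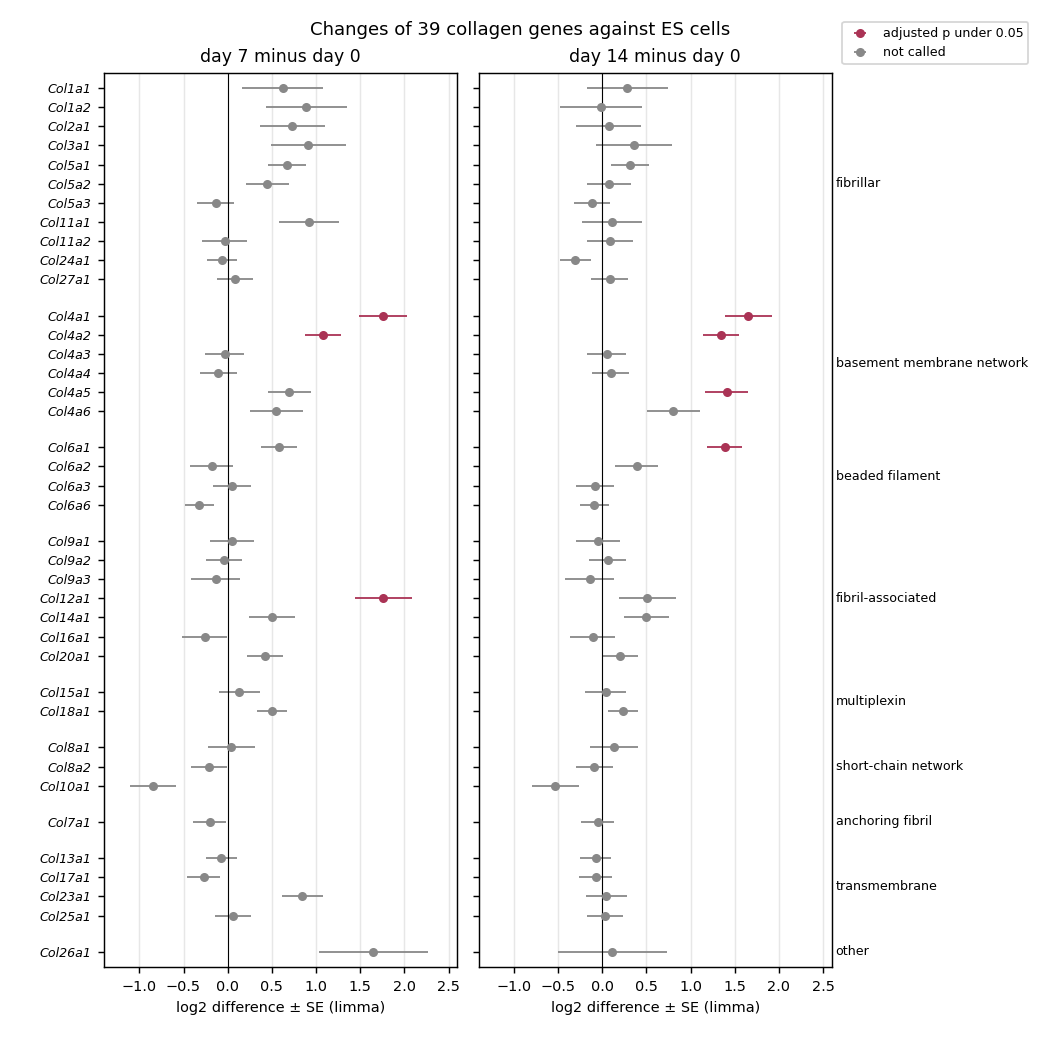
Change of each of the 39 collagen genes against ES cells, as a log2 difference (horizontal axis) with bars of 1 standard error, at day 7 on the left and day 14 on the right. Red points passed an adjusted p under 0.05: Col4a1, Col4a2 and Col12a1 at day 7, and Col4a1, Col4a2, Col4a5 and Col6a1 at day 14. At day 14 most other genes lie near 0. At day 7 several uncalled genes lie further off, such as Col26a1 (1.65), Col11a1 (0.92) and Col10a1 (-0.85).

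The median change of the 39 genes was 0.083 at day 7 and 0.075 at day 14, beside -0.023 and -0.027 over all rows. At day 7, both samples lay above both ES cell samples in 16 collagen genes (41.0%, against 26.5% of all rows) and below both in 6 (15.4%, against 30%). At day 14 these counts were 11 (28.2%, against 21.9%) and 3 (7.69%, against 24.1%). The highest of the 3 stage means was at day 7 in 18 of 39 genes (46.2%, against 35.1% of all rows), at day 14 in 11 and at day 0 in 10. Array signals of different genes come from different probes, so levels were compared between samples and not between genes.

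**Figure D2:**
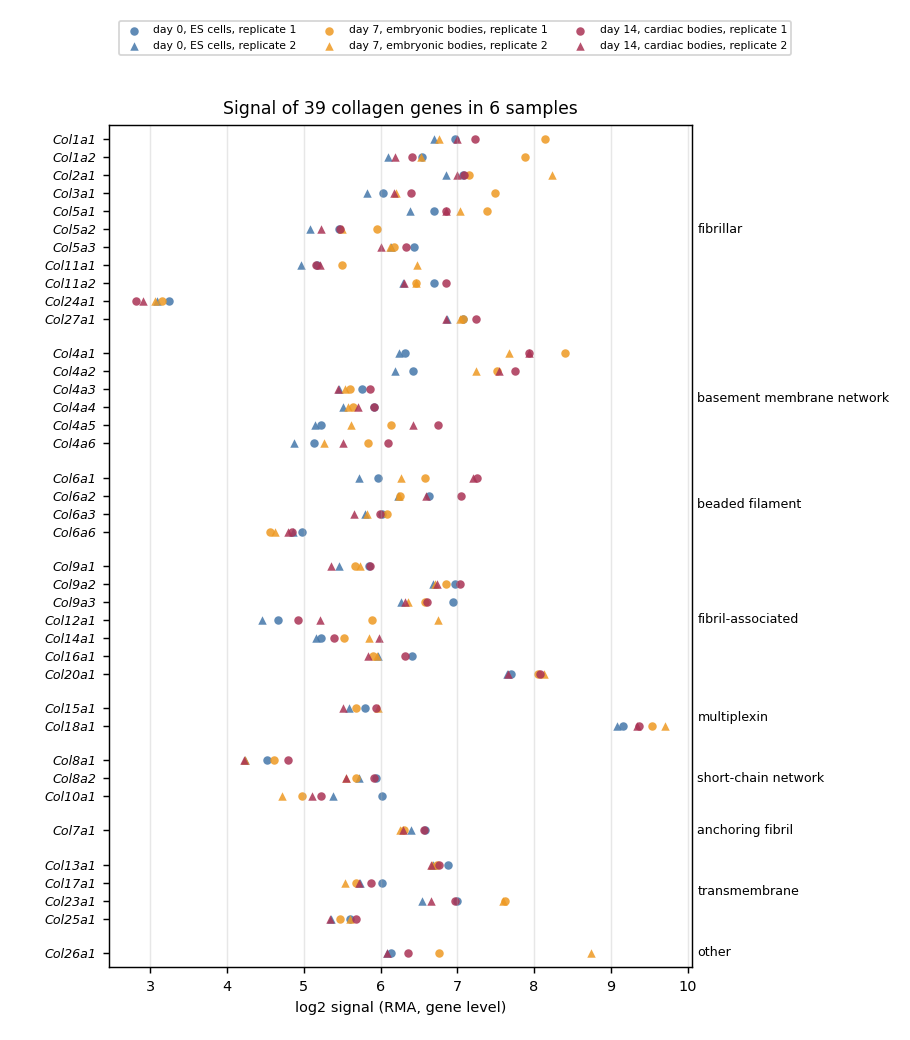
Log2 signal (horizontal axis) of the 39 collagen genes in each of the 6 samples, ordered by collagen type. Colour gives the stage and shape the replicate. The day 7 and day 14 points of Col4a1 lie between 7.68 and 8.40, above its ES cell points at 6.24 and 6.32, while in Col1a1, Col1a2 and Col3a1 only 1 of the 2 day 7 points stands apart.

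Collagen IV held 2 of the 3 calls at day 7 and 3 of the 4 at day 14, and its 6 chains are given by chromosomal pair. Col4a1 and Col4a2 encode the chains of the ubiquitous basement membrane network. Col4a1 had log2 signals of 6.32 and 6.24 in ES cells, 8.40 and 7.68 in embryonic bodies, and 7.93 in both cardiac body samples. All 4 differentiated samples lay above both ES cell samples. It rose by 1.76 ± 0.27 at day 7 (3.38-fold, adjusted p = 0.0182) and by 1.65 ± 0.27 at day 14 (3.15-fold, adjusted p = 0.0395). Col4a2 had signals of 6.43 and 6.18 at day 0, 7.52 and 7.24 at day 7, and 7.75 and 7.54 at day 14. Its 3 stages did not overlap, and it was highest at day 14. It rose by 1.08 ± 0.20 at day 7 (2.11-fold, adjusted p = 0.0304) and by 1.34 ± 0.20 at day 14 (2.53-fold, adjusted p = 0.0318). These chains did not change detectably between day 7 and day 14 (adjusted p = 0.903 for Col4a1 and 0.595 for Col4a2).

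Col4a5 and Col4a6 encode chains of the network that surrounds smooth muscle and parts of the kidney. Col4a5 had signals of 5.22 and 5.14 in ES cells, 6.13 and 5.62 at day 7, and 6.75 and 6.43 at day 14. The samples stepped up from stage to stage without overlap. Its change was 0.70 ± 0.24 at day 7 (adjusted p = 0.143) and 1.41 ± 0.24 at day 14 (2.65-fold, adjusted p = 0.0461), so that the call came only at day 14. The day 14 to day 7 difference was 0.71 ± 0.24 (adjusted p = 0.212). Its neighbour Col4a6 had signals of 5.13 and 4.87, then 5.83 and 5.26, then 6.10 and 5.51. Both later stages lay above the ES cells but overlapped each other, and the changes of 0.55 ± 0.30 and 0.80 ± 0.30 did not pass the test (adjusted p = 0.328 and 0.256).

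Col4a3 and Col4a4, which with Col4a5 build the network of the mature kidney filter, were not called in any comparison. Col4a3 had signals of 5.75 and 5.46, then 5.60 and 5.54, then 5.86 and 5.45. Its stages overlapped throughout, with changes of -0.03 ± 0.22 at day 7 and 0.05 ± 0.22 at day 14. Col4a4 had signals of 5.92 and 5.51, then 5.63 and 5.58, then 5.91 and 5.71. Its changes were -0.11 ± 0.21 and 0.10 ± 0.21, and both later stages overlapped the ES cells, while both day 14 samples lay above both day 7 samples. The median change of the 6 chains was 0.62 at day 7 and 1.07 at day 14.

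**Figure D3:**
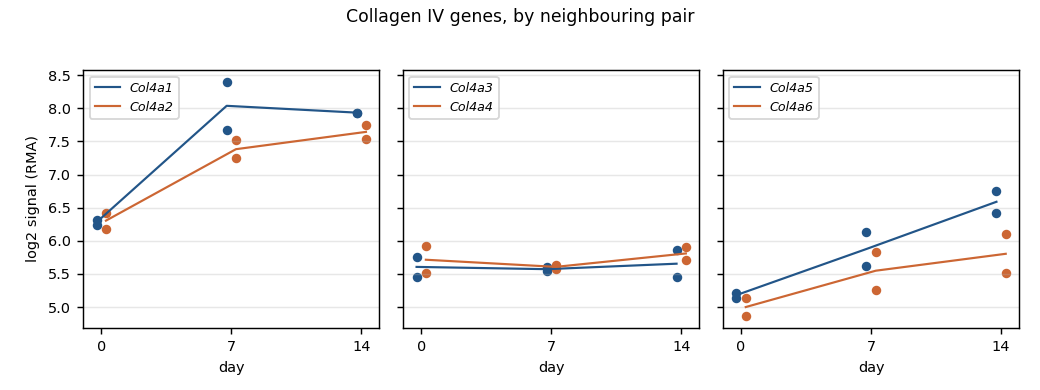
Log2 signal (vertical axis) of the collagen IV genes by day, 1 panel per neighbouring pair. Points are single samples and lines join the stage means. The Col4a1 and Col4a2 pair had risen by day 7, Col4a5 rose from day 0 to day 14, and all values of Col4a3 and Col4a4 lay between 5.45 and 5.92.

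Markers of parietal endoderm, an extraembryonic cell type known for heavy collagen IV output, are given beside these values. Over all rows, 5.35% were called higher and 5.28% lower at day 7, and 2.63% and 0.686% at day 14. These shares are the background for the marker counts that follow. Of the 9 parietal endoderm markers, 5 rose by day 7 and none of the others was called. Lama1 and Nid1, basement membrane genes of the list, lay below both ES cell samples at both later stages, by 0.50 and 0.28 at day 7 and by 1.71 and 1.15 at day 14, without passing the test. The mean signal over the list was 6.98 and 7.04 in ES cells, 8.61 and 8.29 at day 7, and 7.62 and 7.83 at day 14. The day 14 call was limited to Gata4 and Gata6, which are also heart factors. Endothelial markers, from cells that also make this network, rose in 5 of 6 cases and fell in 1 by day 7, and 0 were called at day 14 against day 0. Their mean was 5.77 and 5.82 at day 0, 8.12 and 8.98 at day 7, and 6.07 and 6.36 at day 14. Of 5 smooth muscle markers, 3 rose at day 7, and 1 of them, Acta2, was also higher at day 14, with means of 5.91 and 5.87, then 8.39 and 8.63, then 8.71 and 8.38. The part of these cell types in the collagen signals was not tested. No detection calls were used, so no marker is given as absent.

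The collagen IV calls were near the limit of the design. After leaving out either ES cell sample, no collagen gene was called against day 0, with adjusted p of 0.0838 and 0.0908 for Col4a1 at day 7, although its change stayed at 1.80 and 1.72. Centring each sample on its median removed the 4 day 14 calls (adjusted p from 0.0548 to 0.0806) and that of Col4a2 at day 7 (0.0619). Quantile normalization removed the day 7 call of Col4a2 (0.0699) and all day 14 calls but that of Col6a1 (0.0497).

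Collagen VI changed in 1 of its 4 measured chains. Col6a1, Col6a2 and Col6a3 encode the chains of its common form. Col6a1 had signals of 5.97 and 5.72 in ES cells, 6.58 and 6.27 in embryonic bodies, and 7.26 and 7.20 in cardiac bodies. The stages followed each other without overlap, and the 2 cardiac body samples lay close together. It was higher by 1.39 ± 0.20 at day 14 (2.62-fold, adjusted p = 0.0273), beside 0.58 ± 0.20 at day 7 (adjusted p = 0.139). Its adjusted p against day 0 was 0.107 and 0.145 without 1 or the other ES cell sample.

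The neighbouring Col6a2 had signals of 6.62 and 6.23, then 6.25 and 6.24, then 7.04 and 6.59. Its cardiac body samples overlapped the ES cells but lay above the embryonic bodies, and its change at day 14 was 0.39 ± 0.24 (adjusted p = 0.494). Col6a3 had signals from 5.66 to 6.09 over the 6 samples with no order by stage, and changes of 0.05 ± 0.21 and -0.08 ± 0.21. Col6a6, a chain that can stand in for Col6a3, was lowest at day 7, with signals of 4.98 and 4.85, then 4.55 and 4.63, then 4.85 and 4.80. Its day 7 change of -0.32 ± 0.17 did not pass the test (adjusted p = 0.298).

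Among the 7 fibril-associated collagens, Col12a1 peaked at day 7. Its product sits on collagen I fibrils in dense connective tissue. Col12a1 had signals of 4.66 and 4.46 in ES cells, 5.89 and 6.75 in embryonic bodies, and 4.92 and 5.21 in cardiac bodies. The 3 stages did not overlap, and the 2 embryonic body samples were further apart than those of the other stages. It rose by 1.76 ± 0.32 at day 7 (3.39-fold, adjusted p = 0.0283), and the day 14 value was 0.51 ± 0.32 above day 0 (adjusted p = 0.507). The difference between day 14 and day 7 was -1.26 ± 0.32 (adjusted p = 0.123), and -1.07 ± 0.25 (adjusted p = 0.0406) on the mean of its exon-level probe sets. The day 7 adjusted p was 0.0280 without embryonic body replicate 1 and 0.0541 to 0.122 without any other sample.

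Col14a1, its close relative, had signals of 5.22 and 5.15 in ES cells, 5.53 and 5.84 at day 7, and 5.39 and 5.98 at day 14. All later samples lay above the ES cells, but the changes of 0.50 ± 0.26 at both stages did not pass the test (adjusted p = 0.297 and 0.401). Col20a1 had signals of 7.70 and 7.64, then 8.05 and 8.13, then 8.08 and 7.65, and its day 7 change of 0.42 ± 0.21 was not called (adjusted p = 0.277). The chains of collagen IX, a partner of cartilage fibrils, and Col16a1 gave changes from -0.26 to 0.06 against day 0, and none was called.

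The fibrillar collagens, the ropes of skin, bone and cartilage, were not called in any comparison. Their median change was 0.62 at day 7 and 0.08 at day 14, and -0.36 from day 7 to day 14. Of the 11 genes, 8 had a positive difference at day 7, against 11177 of all 23332 rows. In 5 of the 11, both day 7 samples lay above both ES cell samples, against 26.5% of all rows, and in 0 below both, against 30%. From day 7 to day 14, 9 of 11 had a negative difference, against 11415 of 23332 rows. In 6 of the 11, both day 14 samples lay below both day 7 samples, against 22.3% of all rows, and in 0 above both, against 25.8%. At an unadjusted p under 0.05, 2 of the fibrillar genes, Col5a1 and Col11a1, were higher at day 7 (18.2%, against 25.8% of all rows in either direction).

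The 3 genes of the chief mesenchymal fibrils differed mainly between the 2 embryonic body samples. Col1a1, a chain of collagen I, had signals of 6.96 and 6.69 at day 0, 8.14 and 6.76 at day 7, and 7.23 and 7.00 at day 14. Col1a2, the other chain of collagen I, had signals of 6.54 and 6.09, then 7.88 and 6.52, then 6.42 and 6.19. Col3a1, which encodes collagen III, had signals of 6.04 and 5.83, then 7.50 and 6.20, then 6.40 and 6.18. In each, embryonic body replicate 1 stood above every other sample, and replicate 2 lay within or just above the range of the ES cells. Their day 7 changes were 0.62 ± 0.45, 0.89 ± 0.46 and 0.91 ± 0.43 (adjusted p = 0.468, 0.300 and 0.256).

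Col2a1 and Col11a1, which together form cartilage fibrils, gave the opposite split. Col2a1 had signals of 7.08 and 6.85, then 7.15 and 8.24, then 7.09 and 6.99. Col11a1 had signals of 5.17 and 4.96, then 5.50 and 6.48, then 5.15 and 5.20. Both were highest in embryonic body replicate 2. Their day 7 changes were 0.73 ± 0.37 and 0.92 ± 0.34 (adjusted p = 0.289 and 0.162).

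Col5a1 and Col5a2 encode collagen V, which is buried inside collagen I fibrils. Col5a1 had signals of 6.69 and 6.38, then 7.39 and 7.03, then 6.85 and 6.86. Here both embryonic body samples lay above all others, with a day 7 change of 0.67 ± 0.21 (adjusted p = 0.115). Col5a2 had signals of 5.46 and 5.09, then 5.95 and 5.50, then 5.47 and 5.23, and changed by 0.45 ± 0.25 at day 7 (adjusted p = 0.329). The remaining fibrillar chains, Col5a3, Col11a2, Col24a1 and Col27a1, had changes from -0.30 to 0.08 against day 0. Col24a1 had the lowest mean signal of the 39 genes, at the 7.28 percentile of all rows.

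The other collagen types held no called gene. Col18a1, a heparan sulfate collagen of basement membranes from which endostatin is cut, had signals of 9.16 and 9.08 in ES cells, 9.54 and 9.71 at day 7, and 9.37 and 9.34 at day 14. The stages did not overlap, but the day 7 change of 0.50 ± 0.17 did not pass the test (adjusted p = 0.133). Its relative Col15a1 changed by 0.13 ± 0.23. Col23a1, a membrane-spanning collagen, had signals of 7.00 and 6.53, then 7.62 and 7.60, then 6.96 and 6.66. It stood out at day 7 in both samples, by 0.84 ± 0.23 (adjusted p = 0.0803). The other transmembrane collagens, Col13a1, Col17a1 and Col25a1, gave day 7 changes from -0.27 to 0.06.

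Col10a1, the collagen of hypertrophic cartilage, was the only collagen gene lower at day 7 at an unadjusted p under 0.05. It had signals of 6.02 and 5.38, then 4.98 and 4.71, then 5.22 and 5.11. All later samples lay below both ES cell samples, and the day 7 change was -0.85 ± 0.26 (adjusted p = 0.111). Col8a1 and Col8a2, the other short-chain network genes, and Col7a1, the anchoring fibril of skin, changed by -0.21 to 0.13 against day 0. Col26a1, a secreted protein with a short collagen stretch, had signals of 6.13 and 6.09, then 6.77 and 8.75, then 6.35 and 6.09. Its day 7 change of 1.65 ± 0.62 was among the largest and had the largest standard error of the 39 genes (adjusted p = 0.167), with a gap of 1.98 between the 2 samples. It was called in both comparisons with day 7 once embryonic body replicate 1 (6.77) was left out. Day 7 is then only replicate 2 (8.75), the value furthest from the other stages, and its spread is taken from those stages.

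From day 7 to day 14, 0 of 39 collagen genes passed the limma test in either direction (against 2.11% of all rows higher, 1.02% lower and 3.13% in either direction). At an unadjusted p under 0.05 there were 5 (12.8%, against 17.7% of all rows). Col4a5 and Col6a1 were higher at day 14, by 0.71 ± 0.24 and 0.81 ± 0.20, and Col12a1, Col23a1 and Col26a1 were lower, with differences of -1.26 ± 0.32, -0.80 ± 0.23 and -1.54 ± 0.62. The smallest adjusted p was 0.114, for Col6a1. A fit on the mean of each gene's exon-level probe sets called 2, Col12a1 and Col23a1, both lower, where 8.75% of all genes were called.

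In ES cells and cardiac bodies, but less so in embryonic bodies, the collagen genes tended to be higher in replicate 1. In ES cells, all 39 collagen genes were higher in replicate 1 than in replicate 2, by 0.041 to 0.67 (median 0.24), while 41.2% of all rows were (median -0.081). In cardiac bodies, 34 of 39 were higher in replicate 1 (median 0.27), against 41.9% of all rows. In embryonic bodies it was 26 of 39 (median 0.061), against 46.0%. The gaps within ES cells were smaller than the called changes, but their median was larger than the median change of the collagen list. That change at day 7 was 0.24 without ES cell replicate 1 and -0.024 without replicate 2. A higher replicate 1 was not particular to the collagens. Of 7 chondrocyte markers, 6 were higher in replicate 1 in ES cells and 6 in cardiac bodies. Of 17 chain modification genes, it was 8 and 4. The cause was not tested.

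At day 7, 5 of 39 collagen genes (12.8%) differed by more than 1 between the 2 samples, against 5.6% of all rows. Col1a1, Col1a2 and Col3a1 were higher in replicate 1, by 1.38 at most, and Col2a1 and Col26a1 in replicate 2. Some genes of the pathway and marker lists also split, and those named here were picked for it after their values were seen. A gap over 1 was found in 3 of 8 fibril partners, 4 of 8 fibroblast and mesenchyme markers, 1 of 7 chondrocyte markers and 2 of 6 endothelial markers. It was also found in 3 of 9 parietal endoderm, 2 of 5 smooth muscle, 1 of 7 cardiomyocyte and 1 of 8 pluripotent cell markers. In the other pathway lists it held for 2 of 7 secretion, 1 of 5 crosslinking, 1 of 17 chain modification, 1 of 14 breakdown and 0 of 6 receptor genes. Dcn, the fibril-binding proteoglycan decorin, had day 7 signals of 8.53 and 5.61, and Lum, its relative lumican, 6.40 and 4.41. Creb3l1, a factor known to drive procollagen genes in bone, had 9.64 and 7.46, and Pdgfra, a mesenchymal receptor, 9.12 and 6.81. All were higher in replicate 1. Hapln1, a cartilage link protein, had 6.46 and 9.04, Prrx1, a limb mesenchyme factor, 7.76 and 9.80, and Emcn, an endothelial sialomucin, 6.87 and 10.05. These were higher in replicate 2. Members of the same lists without such a gap include Bgn (6.71 and 7.01), Twist1 (7.33 and 7.55) and Sox9 (8.13 and 8.04).

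As a list, 6 of 8 fibroblast and mesenchyme markers rose at day 7 (against 5.35% of all rows) and 1, Thy1, fell (against 5.28%). Their mean signal was 5.78 and 5.93 in ES cells, 8.55 and 8.28 in embryonic bodies, and 6.51 and 6.87 in cardiac bodies. Of 7 chondrocyte markers, 1, Sox9, rose and 2, Acan and Matn3, fell at day 7. The mean of that list was 5.80 and 5.69, then 5.86 and 6.22, then 5.82 and 5.70. The part of these cells in the fibrillar collagen signals was not tested.

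**Figure D4:**
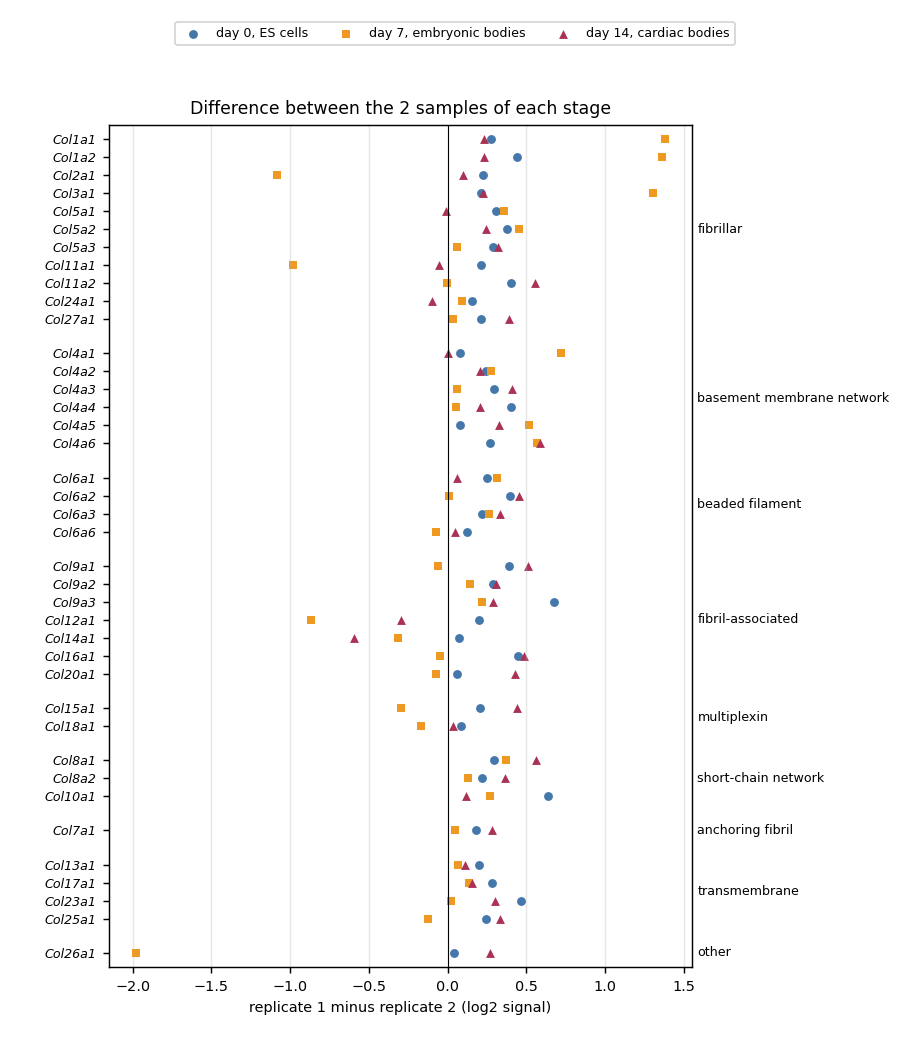
Difference between replicate 1 and replicate 2 of each stage (horizontal axis, log2 signal) for the 39 collagen genes. All 39 day 0 points lie to the right of 0. At day 7, Col1a1, Col1a2 and Col3a1 lie beyond 1 on the right, and Col2a1 and Col26a1 beyond 1 on the left.

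The exon-level probe sets showed how many positions along each gene moved. The exon-level samples carry the same stage and replicate labels as the gene-level samples. Their values are therefore no independent check of the gene-level calls. A probe set was counted as up where its mean rose by 1 or more on the log2 scale, which 10.5% of all probe sets did at day 7 and 8.55% at day 14. At day 7 this held for 41 of 67 Col4a1 probe sets, 28 of 54 for Col4a2 and 45 of 69 for Col12a1. At day 14 it held for 41 of 67 for Col4a1, 29 of 54 for Col4a2, 33 of 60 for Col4a5, 27 of 64 for Col4a6 and 17 of 34 for Col6a1. For Col12a1 it was 22 of 69 at day 14. Col4a3 had 0 of 60 at day 7 and 3 of 60 at day 14, and Col4a4 1 of 61 and 2 of 61.

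Genes that were not called at the gene level also had many such probe sets at day 7. Col26a1 had 14 of 17, Col4a6 22 of 64, Col2a1 20 of 64, Col1a1 18 of 53 and Col3a1 18 of 54. In all of these but Col4a6 they rest on the mean of 2 unlike samples. The exon-level means at day 7 were 6.82 and 8.88 for Col26a1, 7.18 and 8.34 for Col2a1, 8.43 and 6.68 for Col1a1, and 7.78 and 6.34 for Col3a1. The mean of the exon-level probe sets per gene, fitted over all genes in place of the gene-level rows, called 5 collagen genes at day 7 (19.2% of all genes called). They were the 3 named before, Col4a5 (0.82 ± 0.23, adjusted p = 0.0465) and Col23a1 (0.95 ± 0.21, adjusted p = 0.0191). At day 14 it called the same 4 genes as the gene-level rows (8.52% of all genes called). On these means Col19a1, which has no row of its own, changed by -0.12 ± 0.23 at day 7 and -0.21 ± 0.23 at day 14 over 48 probe sets.

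**Figure D5:**
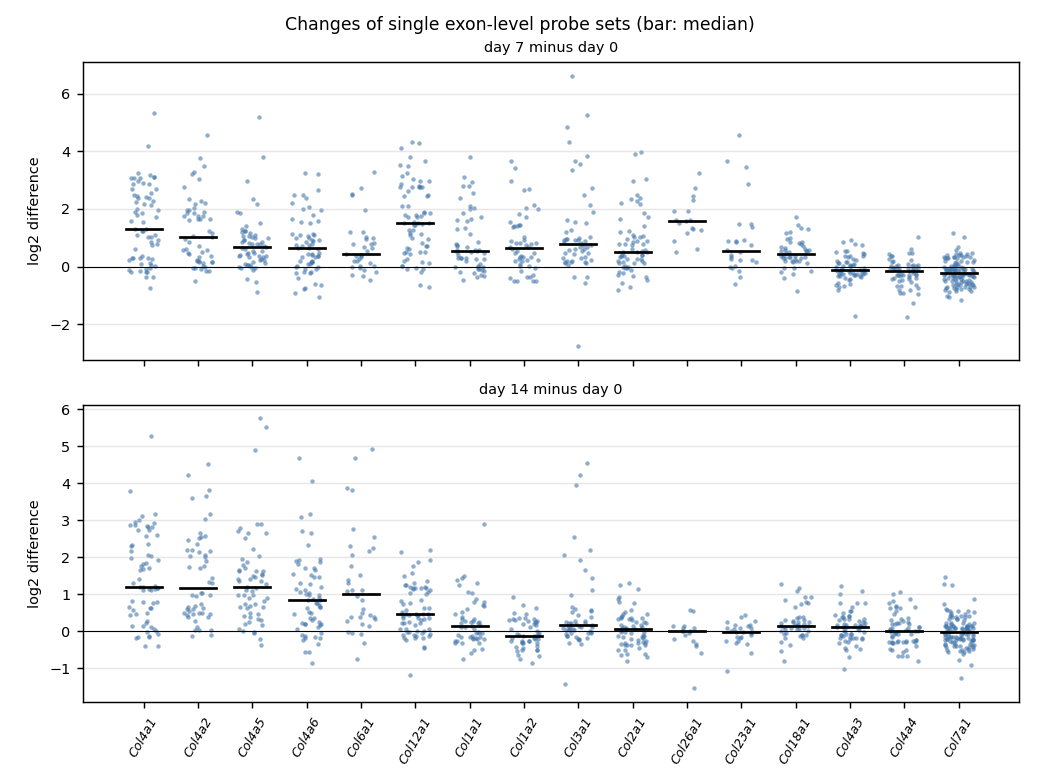
Log2 difference (vertical axis) of single exon-level probe sets for 16 collagen genes, chosen for display after the values were seen, at day 7 (top) and day 14 (bottom) against day 0. Each point is 1 probe set and each bar the median of its gene. At day 14 the medians of Col4a1, Col4a2, Col4a5 and Col6a1 lie above 1 and those of Col4a3, Col4a4 and Col7a1 near 0.

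The series was also made to study exon usage, the signal of a probe set relative to the median of its gene in the same sample. Few collagen genes had enough signal for this in both stages. Only Col18a1 entered for day 7 and day 14 against day 0, with 46 and 45 probe sets, and Col18a1 and Col4a1 together gave 109 from day 7 to day 14. No collagen probe set was called in the limma test, where 0 of 95498, 0 of 99106 and 0 of 100843 probe sets were called over all genes (0% each). At an unadjusted p under 0.05, with the same minimum difference of 1, there were 2, 0 and 0. The share of all probe sets at this cut was not counted, so these counts have no background. The smallest adjusted p were 0.411, 0.743 and 0.929.

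The enzymes, partners and receptors that make, bind and break down collagen were described as a list beside the collagens. Of 57 measured genes of this pathway, 15 rose (26.3%, against 5.35% of all rows) and 2 fell (3.51%, against 5.28%) by day 7. At day 14, 5 were higher (8.77%, against 2.63%) and 2 lower (3.51%, against 0.686%) than at day 0. From day 7 to day 14, 1 rose (1.75%, against 2.11%) and 2 fell (3.51%, against 1.02%). The median change of the list was 0.40 at day 7 and 0.15 at day 14. The same shares of all rows are the background for the counts of its parts below.

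Of 17 genes that modify and fold the chains inside the cell, 3 rose by day 7 (against 5.35% of all rows) and 0 fell (against 5.28%). P3h2, a prolyl 3-hydroxylase known to act on collagen IV, had signals of 5.63 and 5.65 in ES cells, 9.64 and 9.08 at day 7, and 7.76 and 8.03 at day 14. It rose by 3.72 ± 0.24 at day 7 (adjusted p = 0.00271), stood 2.25 ± 0.24 above day 0 at day 14 (adjusted p = 0.0112), and fell by 1.47 between them (adjusted p = 0.0444). P4ha3, a subunit of prolyl 4-hydroxylase, rose by 2.11 ± 0.45 at day 7 (adjusted p = 0.0430). Fkbp14, a folding enzyme of the endoplasmic reticulum, rose by 1.62 ± 0.32 (adjusted p = 0.0332). P4hb, the shared subunit of prolyl 4-hydroxylase, had signals between 9.84 and 10.27 in all 6 samples.

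Of 7 genes of secretion and propeptide removal, 2 were called, both of the trimming step and in opposite directions. Bmp1, the protease that removes the carboxy-terminal propeptide, had signals of 6.78 and 6.90, then 9.59 and 9.86, then 8.86 and 8.85. It rose by 2.88 ± 0.18 at day 7 and 2.01 ± 0.18 at day 14 (adjusted p = 0.0027 and 0.00691). Pcolce2, an enhancer of that protease, fell from 10.07 and 10.27 in ES cells to 6.05 and 7.37 at day 7 and 7.42 and 7.63 at day 14 (adjusted p = 0.0105 and 0.0400). The secretion genes Mia2, Sec23a and Creb3l1 were not called.

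Of 5 crosslinking enzymes, Loxl2, a lysyl oxidase relative known to crosslink collagen IV, rose by 1.55 ± 0.21 at day 7 (adjusted p = 0.0135). Its signals were 6.99 and 6.52, then 8.31 and 8.29, then 7.44 and 7.35. Of 8 fibril partners, Postn (periostin) and Bgn (biglycan) rose at day 7, by 4.47 ± 0.75 and 1.16 ± 0.22 (adjusted p = 0.0225 and 0.0298). Postn had 9.90 and 7.46 at day 7, against 4.22 and 4.20 in ES cells. As in Col1a1, replicate 1 was the higher embryonic body sample, but in Postn both lay above the ES cells. Of 6 receptors, Itgb1, the beta chain of the collagen integrins, rose by 1.21 ± 0.19 at day 7 (adjusted p = 0.0207). The collagen receptor kinase Ddr1 rose by 1.04 ± 0.22 at day 7 and 1.67 ± 0.22 at day 14 (adjusted p = 0.0423 and 0.0218).

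Of 14 breakdown genes, 6 rose at day 7 (against 5.35% of all rows) and 1 fell (against 5.28%). Mmp2, the gelatinase that cuts collagen IV and denatured collagen, had signals of 7.71 and 7.37, then 10.79 and 10.21, then 8.20 and 8.95, a rise of 2.96 ± 0.34 at day 7 (adjusted p = 0.0083). Its membrane-bound activator Mmp14 rose by 1.08 ± 0.23, Mmp16 by 1.72 ± 0.36, and Mrc2, a receptor that takes up collagen fragments, by 1.91 ± 0.18 (adjusted p = 0.0416, 0.0411 and 0.00506). Of the inhibitors, Timp2 went from 5.30 and 4.95 to 8.02 and 8.20 at day 7 and 8.38 and 8.13 at day 14, and was called at both stages (adjusted p = 0.00294 and 0.00354). Timp3 rose by 2.58 ± 0.46 and 2.89 ± 0.46 (adjusted p = 0.0273 and 0.0379). Timp1 went the other way, from 9.18 and 9.45 in ES cells to 6.76 and 6.78 at day 7 and 7.84 and 7.96 at day 14 (adjusted p = 0.00297 and 0.0193), and rose again between them by 1.13 ± 0.18 (adjusted p = 0.0413). Mrc2 fell from day 7 to day 14, by 1.10 (adjusted p = 0.0430).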

How the data were processed

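Log2 signals were deposited by the authors in 2 tables of 6 samples each, at gene level (23332 rows) and exon level (229581 rows). Both carry the same stage and replicate labels, so they were not treated as separate experiments. The submitters' processing notes name Affymetrix Power Tools and RMA (versions not given in the sources used here), and the labels name core probe sets on mm9. Symbols of the platform annotation were updated through the GRCm38.p6 gene table. At gene level 14996 rows had 1 symbol, 1019 several and 7317 none, and collagens were taken from the first. The collagen list, the pathway and marker lists and the tests were chosen with earlier results of these data known. The values as deposited were fitted in R 4.3.3 by limma 3.58.1 (lmFit, then eBayes, 2-sided, 6 samples in 1 fit), and p-values were Benjamini-Hochberg adjusted over all rows. Exon usage needed 4 or more probe sets per gene, a gene median at or above the 50th percentile in both stages, and a probe set mean reaching the 25th percentile in 1 stage. A call needed a difference of at least 1 and an adjusted p under 0.05. All collagens could be named, and other genes mainly where called. Some uncalled genes are also given, such as Dcn, Lum and Lama1. Alternatives were centring, quantile normalization, a filter at the 25th percentile, a replicate block, exon-level means, all rows of a symbol, a trended prior, only the 2 stages compared and leaving out each sample. The number of arrays limits the precision.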

Additional observations from a re-analysis of the deposited data

How the results depend on the processing

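The number of arrays, 2 per stage, limits every call, and the cause of the shifts below was not tested. Against the 3 collagen genes called at day 7 and the 4 at day 14 (both against day 0) and 0 from day 7 to day 14, centring gave 0 at day 14, quantile normalization 1 (Col6a1) at day 14, both 2 (Col4a1 and Col12a1, without Col4a2) at day 7, and a fit of only the 2 stages compared, with fewer samples, 1 (Col4a1) at each of day 7 and day 14. The means of exon-level probe sets gave 5 at day 7 and 2 from day 7 to day 14. Centring moved the median of all rows to -0.11 at day 7 and -0.16 at day 14, and the split of all called rows at day 7 from 1249 higher and 1232 lower to 1168 and 1630, and at day 14 from 614 and 160 to 510 and 276. The collagen median was then -0.0079 and -0.056. Leaving out 1 sample gave 0 to 2 calls at day 7, 0 to 1 at day 14 and 0 to 1 from day 7 to day 14, and collagen medians from -0.024 to 0.24, from -0.10 to 0.21 and from -0.16 to 0.14. Without ES cell replicate 1 or 2 the calls against day 0 were 0, and without either cardiac body sample those at day 14 were 0. A stage left with 1 sample takes its spread from the other stages, as in the calls of Col26a1 without embryonic body replicate 1. Col4a2, Col4a5 and Col6a1 were lost after leaving out any sample (adjusted p from 0.0514 to 0.202), with changes from 0.94 to 1.57. For the pathway genes the counts after leaving out 1 sample were 5 to 13, 1 to 6 and 0 to 1, and the filter on low signal gave 5 instead of 3 from day 7 to day 14. Over all alternatives, the 7 gene calls were lost in 50 of 98 recomputed values, the type medians moved in 13 of 243, and the counts and medians of the main comparisons moved in 36 of 123. Leaving out 1 sample of the stage not compared repeats the fit of only the 2 stages compared, so these values are not all distinct. No called gene changed direction.

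Samples with the same replicate number were not shown to be pairs. With 2 numbers, the correlation of their differences over rows was 0.0826 (day 0 and day 7), 0.486 (day 0 and day 14) and 0.0913 (day 7 and day 14). With the replicate number as a block, the collagen counts were 3, 4 and 0, the same genes, and no call of exon usage was made.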
